A study of Arabidopsis thaliana with 24 samples.

Results

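The 10 genes described here encode 3 enzymes of glycolysis in Arabidopsis thaliana: the glyceraldehyde-3-phosphate dehydrogenases GAPC1 and GAPC2, the enolase LOS2 (also called ENO2) and the ATP-dependent phosphofructokinases PFK1 to PFK7. They were chosen by TAIR locus from the 23929 genes in the files: AT3G04120 (GAPC1), AT1G13440 (GAPC2), AT2G36530 (LOS2), AT4G29220 (PFK1), AT5G47810 (PFK2), AT4G26270 (PFK3), AT5G61580 (PFK4), AT2G22480 (PFK5), AT4G32840 (PFK6) and AT5G56630 (PFK7). All 10 passed the low-count filter that left 20110 genes for testing. The group is described as cytosolic glycolysis, but PFK4 and PFK5 are known as plastid enzymes, so that 8 members act in the cytosol and 2 in the plastid. RNA was sequenced from whole seedlings of the lines vq1, vq10 and vq1vq10, which the series title calls hypermorphic, and of the wild type Col-0 (Col from here on). All seedlings grew in MS medium with 1% sucrose for 14 days and on day 15 spent 4 h in dim light, at 1% oxygen (hypoxia) or at 21% oxygen (normoxia). The groups were hypoxic vq1, vq10, vq1vq10 and Col and normoxic vq1, vq10, vq1vq10 and Col, each with 3 biological replicates, 24 libraries in all.

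Phosphofructokinase adds a second phosphate to fructose 6-phosphate at the cost of ATP, an early and regulated step of glycolysis. GAPC oxidises glyceraldehyde 3-phosphate and makes NADH, and enolase makes phosphoenolpyruvate near the end of the route. When oxygen is short, plant cells lean on glycolysis for ATP, and fermentation through pyruvate decarboxylase and alcohol dehydrogenase turns the NADH back into NAD+.

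GAPC1 and GAPC2, and PFK3 and PFK7, are close copies, so the stretches of coding sequence where reads can least tell them apart are shown. Each is the ungapped window of 90 coding bases with the fewest differences within its pair, and is not typical of the whole coding sequence. The windows below are reference sequence of TAIR10.1, 5′ to 3′ along the coding strand, with the bases that differ within each pair in capitals. The GAPC windows cover coding bases 211 to 300 and hold 5 differences, and the PFK windows cover coding bases 82 to 171 and hold 3.
GAPC2: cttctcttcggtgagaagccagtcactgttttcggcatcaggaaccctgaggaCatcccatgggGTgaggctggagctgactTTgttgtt
GAPC1: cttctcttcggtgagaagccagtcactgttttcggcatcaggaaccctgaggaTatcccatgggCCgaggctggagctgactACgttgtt
PFK3: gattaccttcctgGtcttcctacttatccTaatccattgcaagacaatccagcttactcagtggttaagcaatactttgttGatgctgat
PFK7: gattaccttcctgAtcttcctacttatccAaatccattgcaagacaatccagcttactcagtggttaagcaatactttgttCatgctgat
These 4 stretches belong to the most alike pairs. The coding sequences of GAPC1 and GAPC2 were 89.9% identical with a longest shared run of 53 bases, and those of PFK3 and PFK7 were 84.1% identical with a longest shared run of 51 bases. Among the other PFK pairs coding identity was 57.7 to 76.7%. No pair shared a stretch of 100 bases, and all 10 genes had whole-number counts in all 24 libraries. How the counter divided a read that matched both copies is not given in the sources used here.

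The 3 genes that rose in every genotype were GAPC2, PFK3 and PFK6. For this shared direction the 300 bases before the annotated starts of GAPC2 and PFK6 are shown. Whether these genes share control was not tested. They are TAIR10.1 reference sequence, 5′ to 3′ on the gene's strand, ending at the base before the start. Capitals mark the GT motif of the ADH1 promoter, AAACCA, which here lies on the opposite strand and reads TGGTTT. The windows are chr1:4610879-4611178 for GAPC2 and chr4:15848553-15848852 for PFK6, both on the minus strand. The genes themselves lie at chr1:4608077-4610878 (GAPC2, 11 exons) and chr4:15844576-15848552 (PFK6, 13 exons).
GAPC2: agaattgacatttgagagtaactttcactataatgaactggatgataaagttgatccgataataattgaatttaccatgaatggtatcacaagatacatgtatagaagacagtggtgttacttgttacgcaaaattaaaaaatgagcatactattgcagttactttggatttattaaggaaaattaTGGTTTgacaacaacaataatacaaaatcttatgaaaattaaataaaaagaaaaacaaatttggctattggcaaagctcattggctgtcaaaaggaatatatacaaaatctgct
PFK6: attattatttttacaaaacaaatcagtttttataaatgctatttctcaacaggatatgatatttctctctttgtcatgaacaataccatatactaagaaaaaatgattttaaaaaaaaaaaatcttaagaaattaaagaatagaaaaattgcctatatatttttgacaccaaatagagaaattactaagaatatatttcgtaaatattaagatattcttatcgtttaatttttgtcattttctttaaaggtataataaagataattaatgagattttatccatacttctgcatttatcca
The GAPC2 window held 1 copy, 114 to 109 bases before the start. The PFK6 window had none and was AT-rich, with 20.3% G and C. Among the other 7 members the motif occurred only in PFK2, once, at 246 to 241 bases before the start. On either strand it was present in 31.8% of the 27443 windows of this length before all annotated genes. The GCC box core GCCGCC, the G-box CACGTG and the evening element AAAATATCT, each searched on both strands, were in neither window, nor in those of the other 7 members, and in 2.26, 7.09 and 2.79% of all windows. No motif overlapped another in the windows shown.

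Libraries held 21150032 to 22645177 reads in genes, and the low-oxygen treatment was visible in each of them. ADH1, alcohol dehydrogenase, had 754 to 1228 CPM (counts scaled per library with TMM factors) in the 12 hypoxic libraries, against 4.79 to 29.7 CPM in the 12 normoxic ones. The highest normoxic ADH1 value was that of normoxic Col replicate 2. This library also had the highest normoxic TPM of the hypoxia markers PDC1 (8.04), HB1 (20.6), SUS1 (20.9) and SUS4 (6.28). Among the 10 genes it had the highest normoxic CPM of GAPC1 (533), LOS2 (519), PFK1 (55.6) and PFK5 (26.9). Why this library stood apart was not tested. The labelled genotypes were checked with the altered genes: VQ10 averaged 4.34 ± 0.34 TPM in normoxic vq10 and 3.64 ± 0.83 TPM in normoxic vq1vq10, against 0.703 ± 0.411 TPM in normoxic Col (SD, n = 3 each). Under hypoxia VQ10 averaged 2.29 ± 0.45 TPM in vq10 and 2.32 ± 0.41 TPM in vq1vq10. Hypoxic Col had 0.387 ± 0.253 TPM and hypoxic vq1 0.973 ± 0.448 TPM. These levels rest on few reads, 2 to 58 a library. VQ1 did not pass the test in vq1 or vq1vq10 under either condition (log2 -0.42 to 0.12), so these counts do not check the vq1 label. Summed TPM of 4 shoot markers lay at 89919 to 107460 in hypoxic and 91444 to 103330 in normoxic libraries, but the markers did not move alike. RBCS1A had 21522 to 32162 CPM in hypoxic and 12835 to 18415 CPM in normoxic libraries. For RCA these ranges were 8744 to 11719 and 3825 to 5202 CPM. CAB1 (27149 to 40002 and 28119 to 36950 CPM) and LHB1B2 (15377 to 23429 and 17672 to 23980 CPM) overlapped between the conditions. Summed TPM of 4 root markers lay at 26.1 to 86.7 in hypoxic and 53.5 to 99.5 in normoxic libraries. Most of this sum was PHT1;1, with a mean of 54.9 TPM over the 24 libraries. EXPA7, COBL9 and NRT2:1 had means of 3.25, 2.01 and 0.05 TPM. The root hair genes EXPA7 and COBL9 fell in Col (log2 -3.84 and -2.44), PHT1;1 was not called, and NRT2:1, with 0 to 12 reads a library, was below the filter. The part of these shoot and root markers in the results below was not tested. In whole seedlings, fewer cells of a type and less RNA per cell cannot be told apart.

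Under hypoxia PFK6, PFK3 and GAPC2 rose in all 4 genotypes, while the plastid PFK4 fell in all 4. In Col, PFK6 rose 3.56-fold, PFK3 3.28-fold and GAPC2 1.91-fold, and PFK5 and PFK4 fell by 0.70 and 0.36 on the log2 scale. GAPC1, PFK1, PFK2, PFK7 and LOS2 did not pass the test in Col. The adjusted p of each gene is from edgeR's quasi-likelihood test with Benjamini-Hochberg adjustment over the 20110 genes, and a gene was called where it was under 0.05. Of the 10 genes 5 were called in Col, 3 higher and 2 lower, where 41.8% of all genes were called, 21.9% higher and 19.9% lower. In vq1 7 were called, 5 higher and 2 lower, against 35.6% of all genes, 19.1% higher and 16.5% lower. In vq10 7 were called, also 5 higher and 2 lower, against 37.7% of all genes, 19.5% higher and 18.2% lower. In vq1vq10 6 were called, 5 higher and 1 lower, against 33.4% of all genes, 17.7% higher and 15.7% lower. For the mean change over the 4 genotypes, which rests on all 24 libraries, 8 of 10 were called, 5 higher and 3 lower, against 64.8% of all genes, 31.7% higher and 33.1% lower. The 3 hypoxic and 3 normoxic libraries did not overlap for 7 of the 10 genes in vq1, 8 in vq10, 8 in vq1vq10 and 5 in Col, where 49.6, 48.1, 47.6 and 46.1% of all genes did not overlap. The median log2 change of the 10 genes was 0.23, 0.20 and 0.13 in vq1, vq10 and vq1vq10 and -0.04 in Col, beside -0.01 over all genes in each. The 3 genes called higher in all 4 genotypes stand beside 12.1% of all genes, and the 1 called lower in all 4 beside 8.77%.

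**Figure D1:**
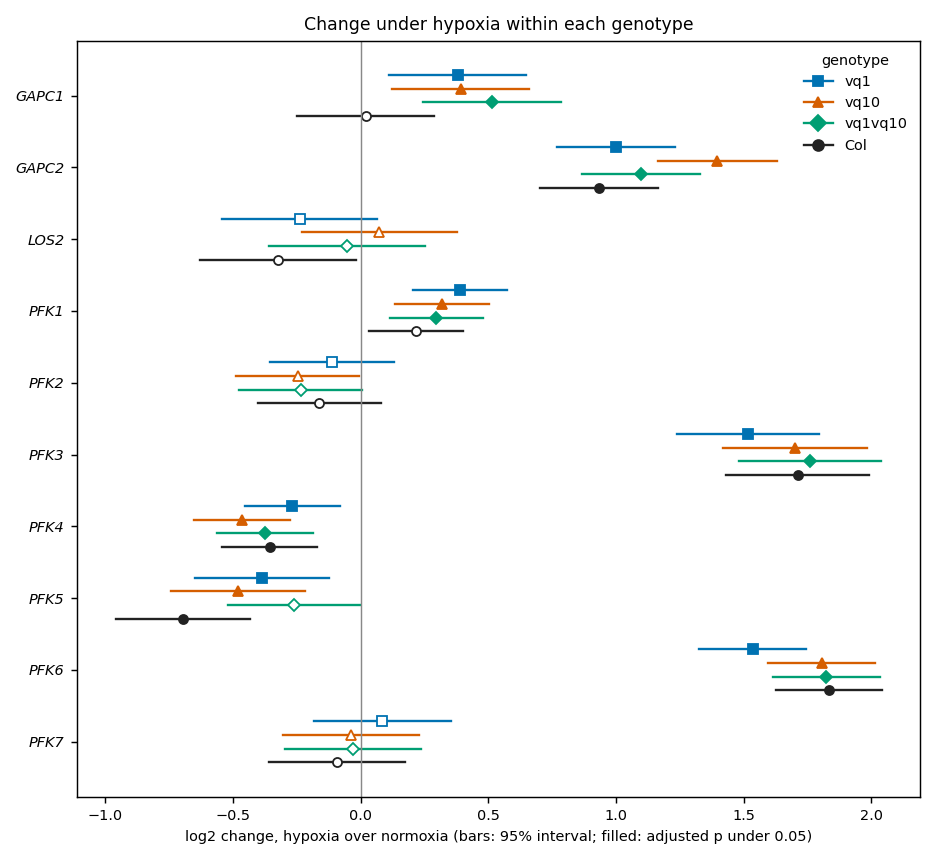
Log2 change of each gene, hypoxia over normoxia, in the 4 genotypes, with 95% intervals; filled symbols have an adjusted p under 0.05. PFK6, PFK3 and GAPC2 are filled on the right in every genotype, and PFK4 is filled on the left in every genotype.

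Some of these directions depend on the scaling. TMM scaling, used throughout, sets the median gene near 0, whereas total counts alone put the median of all genes at -0.20, -0.24 and -0.12 in vq1, vq10 and vq1vq10, -0.25 in Col and -0.21 for the mean change. All genes called in Col then numbered 2433 higher and 7503 lower, in place of 4401 and 4009. Those for the mean change 3690 and 10556, in place of 6371 and 6653. The same split was 2417 and 6136 in vq1, in place of 3845 and 3321. It was 2178 and 7099 in vq10, in place of 3921 and 3655, and 2588 and 4610 in vq1vq10, in place of 3559 and 3166. Among the 10 genes, total counts gave 3 higher and 4 lower in Col and in vq1, 3 and 3 in vq10, 4 and 2 in vq1vq10 and 3 and 5 for the mean change. GAPC2, PFK3 and PFK6 were called higher, and PFK4 lower, under both scalings in every genotype.

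PFK6 is one of the cytosolic phosphofructokinases and rose in all 4 genotypes. It had 33.5, 32.3 and 36.5 CPM in hypoxic vq1, against 10.5, 12.6 and 12.1 CPM in normoxic vq1. In vq10 it had 36.4, 46.5 and 37.4 CPM under hypoxia, against 12.2, 11.3 and 10.996 CPM under normoxia. In vq1vq10 it had 41.5, 40.6 and 37.1 CPM under hypoxia, against 11.2, 10.9 and 11.5 CPM under normoxia. Hypoxic vq1 stayed below 37 CPM in all 3 libraries, and 1 hypoxic vq10 library stood above its group. Hypoxic Col had 39.6, 46.4 and 38.5 CPM, against 11.9, 11.2 and 11.8 CPM in normoxic Col. The lowest of the 12 hypoxic libraries, 32.3 CPM, lay above the highest of the 12 normoxic ones, 12.6 CPM. PFK6 rose 2.90-fold in vq1, 3.50-fold in vq10, 3.54-fold in vq1vq10 and 3.56-fold in Col, where the 95% interval was 3.08 to 4.12 (adjusted p = 3.7e-12, edgeR). For the mean change of 1.75 on the log2 scale, 439 genes, or 2.18% of those tested, had a larger value.

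PFK3, another cytosolic phosphofructokinase, also rose in all 4 genotypes. It had 17.9, 15.3 and 14.9 CPM in hypoxic vq1, against 4.79, 6.69 and 5.31 CPM in normoxic vq1. In vq10 it had 16.0, 14.5 and 15.6 CPM under hypoxia, against 3.94, 5.25 and 5.01 CPM under normoxia. In vq1vq10 the hypoxic libraries had 19.008, 18.6 and 15.97 CPM, against 4.84, 4.88 and 6.11 CPM in the normoxic ones. The hypoxic and normoxic libraries stood apart in each of these lines. Hypoxic Col had 17.8, 14.9 and 15.7 CPM, against 4.88, 4.82 and 5.07 CPM in normoxic Col. PFK3 rose 2.86-fold in vq1, 3.25-fold in vq10, 3.38-fold in vq1vq10 and 3.28-fold in Col (log2 1.71 ± 0.14 SE, adjusted p = 1.2e-09, edgeR). Its mean change of 1.67 was exceeded by 486 genes, 2.42% of those tested. PFK7, its closest copy, did not pass the test in any genotype under either scaling: it had 17.6 to 25.6 CPM in hypoxic and 18.2 to 24.7 CPM in normoxic libraries. Its mean log2 change was -0.02, with an interval of -0.15 to 0.11. With total counts the mean change was -0.21, which passed the test as lower (adjusted p = 0.012, edgeR), and in vq1 its change was 0.08 with TMM, -0.11 with total counts and -0.03 without hypoxic vq1 replicate 1.

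PFK1, a cytosolic enzyme, rose in the 3 mutants and was not called in Col. It had 65.8, 59.7 and 55.4 CPM in hypoxic vq1, against 44.2, 45.7 and 48.4 CPM in normoxic vq1, and 54.98, 57.8 and 61.9 CPM in hypoxic vq10, against 49.3, 44.8 and 46.1 CPM in normoxic vq10. Hypoxic vq1vq10 had 56.8, 54.7 and 54.8 CPM, against 46.0, 48.5 and 40.9 CPM in normoxic vq1vq10. In hypoxic Col it had 55.05, 54.8 and 59.4 CPM, against 44.8, 55.6 and 45.1 CPM in normoxic Col. The groups did not overlap in the mutants, and in Col 1 normoxic library lay among the hypoxic ones. PFK1 rose by 0.39, 0.32 and 0.30 on the log2 scale in vq1, vq10 and vq1vq10 (adjusted p = 0.0015, 0.0071 and 0.012, edgeR). In Col its change was 0.22 (adjusted p = 0.053), or -0.02 with total counts, under which PFK1 was called in no genotype. Its adjusted p in Col was 0.0096 without normoxic Col replicate 2 and 0.047 without hypoxic vq1 replicate 1. In vq1vq10 it was 0.054 without hypoxic replicate 1 and 0.096 without normoxic replicate 3.

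PFK2, with a short gene of 2 exons, was called in no single genotype under TMM scaling and as lower in all 4 under total counts. It had 10.103 to 14.4 CPM, median 12.7, in the 12 hypoxic libraries and 12.4 to 15.5 CPM, median 14.6, in the 12 normoxic ones, and the 2 ranges overlapped. In vq10 all hypoxic libraries lay below the normoxic ones (10.103 to 13.9 against 14.6 to 15.5 CPM). The same held in vq1vq10 (11.8 to 12.8 against 14.5 to 14.9 CPM), while vq1 and Col overlapped. Its log2 change was -0.11 in vq1, -0.25 in vq10, -0.24 in vq1vq10 and -0.16 in Col. With total counts it fell by 0.30 in vq1, 0.47 in vq10, 0.35 in vq1vq10 and 0.40 in Col (adjusted p = 0.038, 0.0018, 0.019 and 0.0055, edgeR). Over the 4 genotypes it fell by 0.19 with TMM (± 0.058 SE, adjusted p = 0.0071, edgeR).

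The plastid enzymes PFK4 and PFK5 had lower values under hypoxia, PFK4 in all 4 genotypes. PFK4 had 25.8, 29.0 and 23.5 CPM in hypoxic vq1, against 33.7, 29.6 and 31.0 CPM in normoxic vq1. In vq10 it had 26.5, 22.3 and 22.9 CPM under hypoxia, against 30.4, 35.5 and 33.0 CPM under normoxia. In vq1vq10 it had 22.0, 24.8 and 24.5 CPM under hypoxia, against 32.1, 31.6 and 28.7 CPM under normoxia. All hypoxic libraries of a genotype lay below its normoxic ones, and by the least in vq1. Hypoxic Col had 25.2, 22.9 and 24.8 CPM, against 31.2, 31.0 and 31.2 CPM in normoxic Col. PFK4 fell by 0.27, 0.46, 0.38 and 0.36 on the log2 scale in vq1, vq10, vq1vq10 and Col (adjusted p = 0.023, 3.2e-04, 0.0024 and 0.0030, edgeR). In vq1 its adjusted p was 0.065 and 0.0997 without hypoxic replicate 1 or 3 and 0.104 without normoxic replicate 1.

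PFK5, the other plastid enzyme, fell in vq1, vq10 and Col. It had 15.9, 15.6 and 16.9 CPM in hypoxic vq1, against 18.3, 21.7 and 23.3 CPM in normoxic vq1. In vq10 it had 15.2, 16.4 and 17.4 CPM under hypoxia, against 24.8, 21.0 and 22.5 CPM under normoxia. In vq1vq10 it had 19.1, 18.9 and 16.1 CPM under hypoxia, against 23.7, 20.5 and 20.8 CPM under normoxia. Hypoxic vq1vq10 held the 2 highest hypoxic values, close to its normoxic libraries. Hypoxic Col had 13.2, 12.4 and 17.6 CPM, against 22.0, 26.9 and 21.1 CPM in normoxic Col, and hypoxic replicate 3 stood above the other two. PFK5 fell by 0.39 in vq1, 0.48 in vq10 and 0.70 in Col on the log2 scale (adjusted p = 0.020, 0.0046 and 1.3e-04, edgeR). In vq1vq10 its change was -0.26, with an interval of -0.52 to 0.00 and an adjusted p of 0.11. The adjusted p in vq1 was 0.059 and 0.066 without hypoxic replicate 1 or 2 and 0.094 without normoxic replicate 3.

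**Figure D2:**
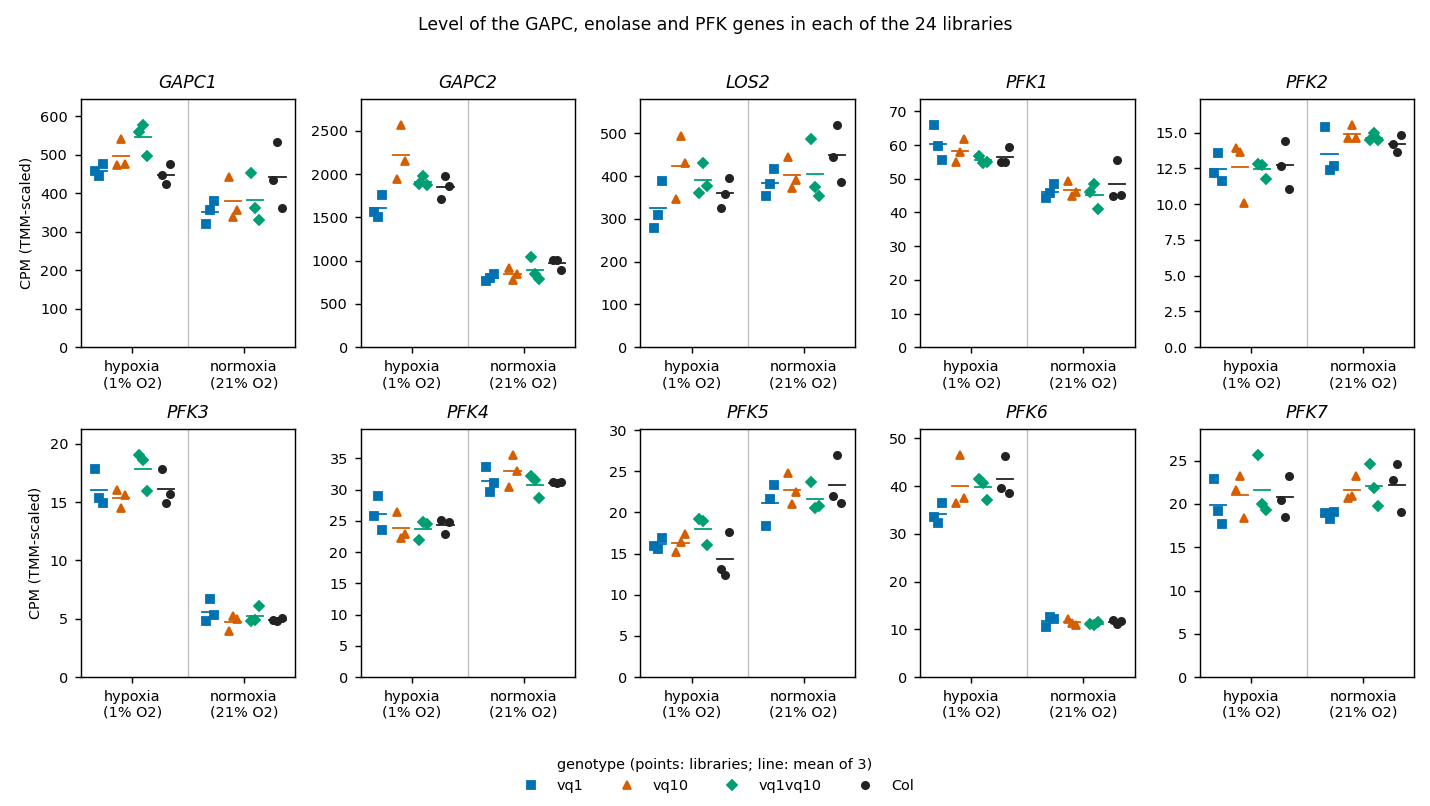
CPM of each gene in the 24 libraries, with hypoxia left of normoxia, 1 symbol for each genotype and a line at the mean of 3 libraries; each vertical axis starts at 0 and has its own scale. The hypoxic points of PFK3, PFK6 and GAPC2 all lie above the normoxic ones, whereas over all 24 libraries the points of LOS2, PFK2 and PFK7 overlap.

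On the per-length scale of the deposited TPM, the order within the PFK family differed between the conditions. PFK1 was highest in all 8 groups, at 39.5 ± 2.7, 37.2 ± 2.5, 39.1 ± 1.4 and 36.03 ± 4.9 TPM in hypoxic vq1, vq10, vq1vq10 and Col, against 34.1 ± 3.1, 35.3 ± 2.0, 34.1 ± 2.7 and 36.8 ± 5.8 TPM in the same lines under normoxia (SD, n = 3 each). PFK6 was second in every hypoxic group, at 22.3 ± 1.6, 25.7 ± 4.4, 28.0 ± 2.3 and 26.3 ± 1.6 TPM, and second last in every normoxic group, at 8.68 ± 0.95, 8.66 ± 0.40, 8.47 ± 0.30 and 8.79 ± 0.09 TPM. PFK3 was last in every normoxic group, at 3.36 to 3.88 TPM. In hypoxic Col it averaged 9.66 ± 1.18 TPM, within 1 SD of PFK2 at 9.58 ± 0.51 TPM and PFK5 at 8.57 ± 2.48 TPM, so these neighbours in the order did not differ beyond their spread. PFK4 followed PFK6 in every hypoxic group and PFK1 in every normoxic group. PFK5, PFK7 and PFK2 followed it in normoxic Col at 16.4 ± 2.7, 15.7 ± 2.4 and 12.8 ± 0.3 TPM, of which PFK5 and PFK7 lay within 1 SD of each other.

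Within the family PFK6 held 18.4, 21.3, 21.0 and 22.3% of the summed PFK TPM in hypoxic vq1, vq10, vq1vq10 and Col, against 7.85, 7.31, 7.38 and 7.43% under normoxia. PFK3 held 8.12, 7.71, 8.88 and 8.14% under hypoxia, against 3.52, 2.84, 3.28 and 2.96% under normoxia. The plastid PFK4 held 14.8, 13.5, 13.3 and 13.6% under hypoxia, against 22.2, 22.3, 21.5 and 21.0% under normoxia. The family's summed TPM was 121, 120, 133 and 119 under hypoxia, against 111, 118, 115 and 119 under normoxia. PFK6 thus took a larger share of a summed TPM that in Col was about equal in both conditions. PFK1 kept 29.4 to 32.5% of this sum under hypoxia, against 29.6 to 30.8% under normoxia. The deposited TPM carries no TMM factors, so the near-equal sum in Col is a statement about that scale. With TMM, PFK1 averaged 56.4 CPM in hypoxic and 48.5 CPM in normoxic Col, beside 36.03 and 36.8 TPM. The 5 cytosolic PFK genes together had 93.6, 94.2, 103.8 and 94.1 TPM under hypoxia, against 71.5, 76.1, 75.1 and 77.7 TPM under normoxia. The ratio of PFK6 to PFK4, a ratio within each library that no scaling changes, lay at 1.06 to 1.95 in the 12 hypoxic libraries and 0.297 to 0.408 in the 12 normoxic ones. PFK6 to PFK1 was 0.508 to 0.846 in hypoxic libraries, against 0.201 to 0.282 in normoxic ones. PFK3 to PFK2 was 0.816 to 1.22 in hypoxic libraries, against 0.212 to 0.426 in normoxic ones.

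**Figure D3:**
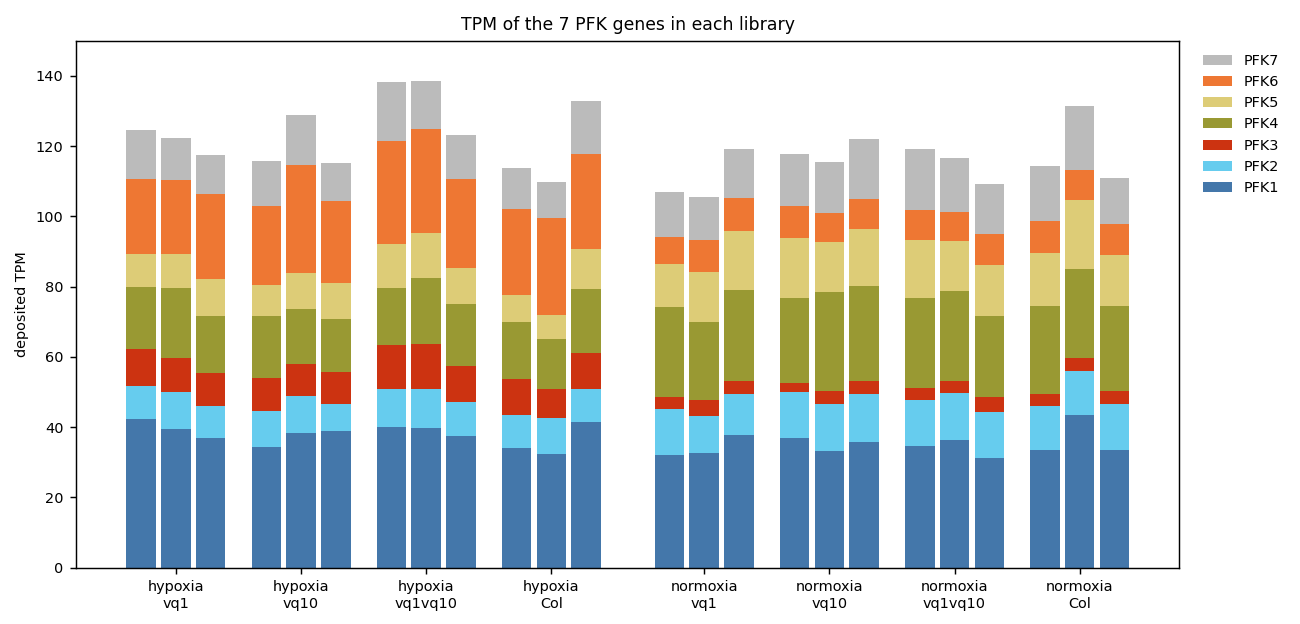
Deposited TPM of the 7 PFK genes stacked for each library, 3 bars a group, with the hypoxic groups on the left. The PFK6 band is wider in the hypoxic libraries (18.4 to 22.3% of the stack by group) than in the normoxic ones (7.31 to 7.85%), and the PFK4 band is narrower.

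GAPC2 was the most abundant of the 10 genes and rose in all 4 genotypes. It had 1564, 1499 and 1757 CPM in hypoxic vq1, against 763, 800.3 and 847 CPM in normoxic vq1. In vq10 it had 1946, 2562 and 2152 CPM under hypoxia, against 913, 774 and 842 CPM under normoxia. In vq1vq10 it had 1887, 1977 and 1875 CPM under hypoxia, against 1041, 848 and 791 CPM under normoxia. Hypoxic vq1 was the lowest of the hypoxic groups and hypoxic vq10 the highest, with a wide spread. Hypoxic Col had 1707, 1975 and 1867 CPM, against 1005, 1008 and 894 CPM in normoxic Col. GAPC2 rose by 1.00, 1.40 and 1.10 on the log2 scale in vq1, vq10 and vq1vq10 and by 0.93 in Col (± 0.11 SE each, adjusted p = 2.7e-07, 1.6e-09, 7.2e-08 and 6.5e-07, edgeR). Its mean change was 2.15-fold, interval 1.99 to 2.33, and 988 genes, 4.91% of those tested, had a larger one.

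GAPC2, PFK3 and PFK6 were the 3 members whose 12 hypoxic libraries all lay above the 12 normoxic ones, which held for 10.4% of all genes. No member lay below in the same way, against 7% of all genes.

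GAPC1, with the same coding length as GAPC2, rose in the 3 mutants and was not called in Col. It had 457, 444 and 475 CPM in hypoxic vq1, against 320.1, 357 and 381 CPM in normoxic vq1. In vq10 it had 475, 540.2 and 477 CPM under hypoxia, against 442, 339 and 356 CPM under normoxia. In vq1vq10 it had 560.1, 576 and 498 CPM under hypoxia, against 452, 362 and 331 CPM under normoxia. In each mutant the 3 hypoxic libraries lay above the 3 normoxic ones. Hypoxic Col had 447, 424 and 475 CPM, inside the span of normoxic Col at 435, 533 and 361 CPM. GAPC1 rose by 0.38, 0.39 and 0.51 on the log2 scale in vq1, vq10 and vq1vq10 (adjusted p = 0.025, 0.021 and 0.0036, edgeR). Its change in Col was 0.02 (adjusted p = 0.92), or -0.22 with total counts, under which vq1vq10 was the one genotype where GAPC1 was called. Leaving out normoxic Col replicate 1 or 3 or hypoxic Col replicate 3 also turned its sign in Col (-0.01, -0.12 and -0.04). In vq1 the call was lost without hypoxic replicate 1 or 3 or normoxic replicate 1 or 2 (adjusted p = 0.056, 0.087, 0.104 and 0.067, edgeR). In vq10 it was lost without hypoxic replicate 2 or normoxic replicate 2 or 3 (adjusted p = 0.098, 0.115 and 0.0904).

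The makeup of the GAPC pair differed between the conditions. On the TPM scale GAPC2 averaged 1320 ± 122, 1786 ± 310, 1691 ± 96 and 1473 ± 161 in hypoxic vq1, vq10, vq1vq10 and Col, against 745 ± 71, 796 ± 77, 843 ± 116 and 916 ± 61 under normoxia (SD, n = 3 each). GAPC1 averaged 366 ± 16, 387 ± 42, 469 ± 49 and 349 ± 51 TPM under hypoxia, against 318 ± 40, 349 ± 50, 351 ± 57 and 409 ± 91 TPM under normoxia. GAPC2 held 78.2, 82.1, 78.3 and 80.8% of their summed TPM under hypoxia, against 70.1, 69.6, 70.7 and 69.4% under normoxia. The ratio of GAPC2 to GAPC1 TPM was 3.44 to 4.89 in the 12 hypoxic libraries and 1.91 to 2.60 in the 12 normoxic ones, with no overlap.

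LOS2, the cytosolic enolase, did not pass the test in any genotype. It had 279, 309 and 389 CPM in hypoxic vq1, against 355, 381 and 417 CPM in normoxic vq1, and 346, 493 and 431 CPM in hypoxic vq10, against 446, 372 and 391 CPM in normoxic vq10. Hypoxic vq1vq10 had 362, 432 and 377 CPM, against 487, 375 and 353 CPM in normoxic vq1vq10. In Col it had 325, 359 and 396 CPM under hypoxia, against 445, 519 and 386 CPM under normoxia. The hypoxic and normoxic libraries overlapped in all 4 genotypes. The log2 change was -0.24 in vq1 (adjusted p = 0.22, edgeR), -0.05 in vq1vq10 (0.81) and -0.32 in Col (0.082). In vq10 it was 0.07 (adjusted p = 0.73), or -0.15 with total counts and -0.06 without hypoxic vq10 replicate 2, and in vq1vq10 it was 0.09 without normoxic replicate 1. The mean change was -0.14, with an interval of -0.29 to 0.02 (adjusted p = 0.11). It was called lower without hypoxic vq1 replicate 3, hypoxic vq10 replicate 2 or normoxic Col replicate 3 (-0.19, -0.18 and -0.17, adjusted p = 0.028, 0.036 and 0.046), and in Col without normoxic Col replicate 3 (-0.44, adjusted p = 0.035). Total counts called LOS2 lower in vq1, in Col and for the mean change.

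The rest of the route was followed with a list of 50 other genes of 14 steps of sugar phosphate metabolism and glycolysis, 28 of them cytosolic, 19 plastid and 3 elsewhere. In Col 23 of the 49 tested rose and 12 fell, beside 21.9 and 19.9% of all genes, with a median log2 change of 0.06. Of the cytosolic genes 12 rose and 7 fell among 27 tested, and of the plastid genes 10 rose and 4 fell among 19. For the 49 genes the counts were 23 and 11 in vq1, beside 19.1 and 16.5% of all genes. They were 25 and 10 in vq10, beside 19.5 and 18.2%, and 20 and 9 in vq1vq10, beside 17.7 and 15.7%. The 3 largest rises in Col were the cytosolic aldolases FBA5 (log2 2.95 ± 0.27 SE) and FBA7 (1.84 ± 0.10) and the UDP-glucose pyrophosphorylase UGP2 (2.11 ± 0.094), whose enzyme links sucrose breakdown by sucrose synthase to hexose phosphates. The 3 largest falls were the plastid hexokinase HXK3 (-1.37 ± 0.20), the plastid enolase ENO1 (-1.09 ± 0.17) and PFP-BETA1 (-0.92 ± 0.11), a catalytic subunit of the pyrophosphate-dependent phosphofructokinase.

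The genes with the highest TPM of their step and compartment over all 24 libraries, which rank differently at some steps within a condition, had these changes in Col. Before the PFK step, log2 changes were -0.77 for the hexokinase HXK1, 1.60 for the fructokinase FRK1 (AT2G31390) and 0.50 for the cytosolic isomerase PGIC, all called. The fructokinase of the plastid, FRK3, changed by -0.24, the plastid isomerase PGI1 by 0.03, PGM3 by 0.05 and UGP1 by -0.05, and none of these passed, while the plastid phosphoglucomutase PGM1 rose by 0.75. Beside PFK, PFP-BETA2 of the pyrophosphate-dependent enzyme changed by 0.43 and was called higher. The other genes of that enzyme, PFP-ALPHA1, PFP-ALPHA2 and PFP-BETA1, stood at -0.63, -0.27 and -0.92 and were called lower. Between PFK and GAPC, the plastid aldolase FBA2 rose by 1.06, the cytosolic triose phosphate isomerase CTIMC stood at 0.06 (not called) and its plastid form PDTPI rose by 0.29. Beside GAPC, the plastid GAPA1 of the Calvin cycle rose by 1.07 and the non-phosphorylating dehydrogenase ALDH11A3 by 0.87. Below GAPC, the plastid PGK1 rose by 0.31, the cytosolic PGK3 stood at -0.31 (adjusted p = 0.060, edgeR) and the mutase IPGAM2 rose by 0.51. Beside LOS2, the other cytosolic enolase gene ENO3 fell by 0.61 (adjusted p = 6.2e-04). At the last step the cytosolic pyruvate kinase gene AT2G36580 rose by 1.31 (adjusted p = 2.5e-09), and the plastid PKP-ALPHA stood at -0.24 (0.070). None of the 3 enolase genes thus passed the test as higher in Col. With total counts PGI1, PGM3 and CTIMC turned to -0.21, -0.19 and -0.18, and PDTPI, PGK1 and PFP-BETA2 lost their calls. Total counts also called FRK3 (-0.49), PGK3 (-0.55) and PKP-ALPHA (-0.48) lower (adjusted p = 7.0e-04, 0.0031 and 2.1e-04, edgeR). PDTPI also lost its call without hypoxic or normoxic Col replicate 1 or 2 (adjusted p = 0.078 to 0.12, edgeR) and PGK1 without normoxic Col replicate 3 (0.063). FRK3 was called without hypoxic Col replicate 2 (adjusted p = 0.019), PKP-ALPHA without Col replicate 2 of either condition or hypoxic vq1vq10 replicate 3 (0.0054 to 0.042), and PGK3 without normoxic Col replicate 3 (0.0074) or any of 6 libraries of the mutants (0.040 to 0.050).

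At some steps the leading gene in Col was not the same in both conditions, and the genes given here for it were chosen after their values were seen. HXK2 had 23.6 TPM in hypoxic Col, above HXK1 at 14.1 TPM, against 13.5 TPM in normoxic Col, below HXK1 at 28.5 TPM, and it rose by 1.04 on the log2 scale. UGP2 had 73.7 TPM in hypoxic Col, above UGP1 at 50.7 TPM, against 19.8 TPM in normoxic Col, below UGP1 at 62.4 TPM. PGM2, at 50.1 TPM beside 48.3 TPM for PGM3 in hypoxic Col, rose by 0.48. Hexokinase, with HXK1 lower and HXK2 higher, thus held called genes of both directions, and it was not the only such step. The mutase IPGAM1 stood at -0.91 in Col beside IPGAM2 at 0.51, and the fructokinase FRK4 at -0.66 beside FRK1 at 1.60. Among the cytosolic aldolases FBA8 stood at -0.34 beside FBA5 at 2.95, and all of these were called. Among the cytosolic pyruvate kinase genes AT2G36580 had 86.1 TPM in hypoxic Col, the highest of them, against 41.4 TPM in normoxic Col, below AT3G52990 at 65.6 TPM and AT5G08570 at 48.7 TPM. AT5G08570 rose by 0.39, while AT3G52990 (0.00), AT5G63680 (-0.07) and AT5G56350 (-0.27) did not pass, and AT4G26390, with 0 to 2 reads a library, was not tested.

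By the root mean square difference of centred log2 CPM over the 24 libraries, the patterns most like PFK6 were those of FBA7 (0.14), AlaAT1 (0.16) and HYR1 (0.16), where the SD of PFK6 itself was 0.90. For PFK3, SD 0.86, they were FBA7 (0.15), AT2G16365 (0.16) and SIGC (0.17). For GAPC2, SD 0.59, they were FBA6 (0.12), RSR4 (0.14) and SSI2 (0.14). Closest to GAPC1 were UGP1, PGM3 and AT5G47880, with the symbol ERF1-1 (0.10 to 0.11). Closest to LOS2 were PAB4, FBA8 and UDG4 (0.07 to 0.09). AT3G12010, ATB2 and CI51 came closest to PFK1, and AT1G68410, LARP6b and E1 ALPHA to PFK2. AT2G02970, XBAT35 and TRM21 came closest to PFK4, LACS6, AT3G62360 and NSF to PFK5, and APP1, AT4G17830 and ACO3 to PFK7. The libraries share their condition, so genes with a like response to hypoxia are near each other by this measure.

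The remaining comparisons asked whether the mutants differed from Col in these genes. One library bears on them: without hypoxic Col replicate 3 the number of all genes called under hypoxia was 137 in place of 17 for vq1 against Col and 338 in place of 17 for vq1vq10 against Col. Without hypoxic Col replicate 1 both counts were 10, and without hypoxic Col replicate 2 the count for vq1 was 10. Under normoxia 0 of 30 tests (10 genes in 3 mutants) were called by edgeR and by DESeq2, with 2 at an unadjusted p under 0.05, where 0.0796, 0.0597 and 0.0646% of all genes were called in vq1, vq10 and vq1vq10. Both were in vq1, where GAPC1 stood at -0.33 and GAPC2 at -0.27 on the log2 scale against Col (adjusted p = 0.61 and 0.62). Over all 20110 genes, 1451 in vq1, 713 in vq10 and 869 in vq1vq10 had an unadjusted p under 0.05 by edgeR. Under hypoxia 0 of 30 were called by either tool and 4 had an unadjusted p under 0.05, beside 0.0845, 0.0646 and 0.0845% of all genes called. These 4 were PFK6 in vq1 (-0.28, adjusted p = 0.82), GAPC2 in vq10 (0.26, 0.54), GAPC1 in vq1vq10 (0.28, 0.51) and PFK5 in vq1vq10 (0.32, 0.44). Of all genes under hypoxia, 1100, 1709 and 1895 had an unadjusted p under 0.05 in vq1, vq10 and vq1vq10 by edgeR. Without hypoxic Col replicate 3, whose PFK5 was 17.6 CPM beside 13.2 and 12.4 CPM in the others, PFK5 was called in vq1vq10 against Col (log2 0.50, adjusted p = 0.048). With all 24 libraries the 95% intervals of both conditions lay between -0.60 and 0.59.

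Neither did the response to hypoxia pass the test of a difference between a mutant and Col. Of 30 differences in response 0 were called by edgeR or by DESeq2 and 4 had an unadjusted p under 0.05, and of all 20110 genes 0% were called in each mutant by edgeR. At an unadjusted p under 0.05 edgeR had 682 genes in vq1, 1654 in vq10 and 1638 in vq1vq10, and DESeq2 called 2 genes, in vq1vq10. GAPC1 responded by 0.50 more on the log2 scale in vq1vq10 than in Col, with an interval of 0.12 to 0.88 (adjusted p = 0.54). GAPC2 responded by 0.46 more in vq10 (0.14 to 0.79, adjusted p = 0.59) and PFK5 fell by 0.43 less in vq1vq10 (0.07 to 0.80, adjusted p = 0.56). PFK6 responded by -0.30 in vq1 relative to Col, with an interval of -0.59 to -0.01 (adjusted p = 1.00). A call in 1 genotype and none in another, as for GAPC1, PFK1 and PFK5, was therefore not shown to be a difference between genotypes. The intervals reach from -0.59 to 0.88, so that differences of that size are compatible with these data.

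**Figure D4:**
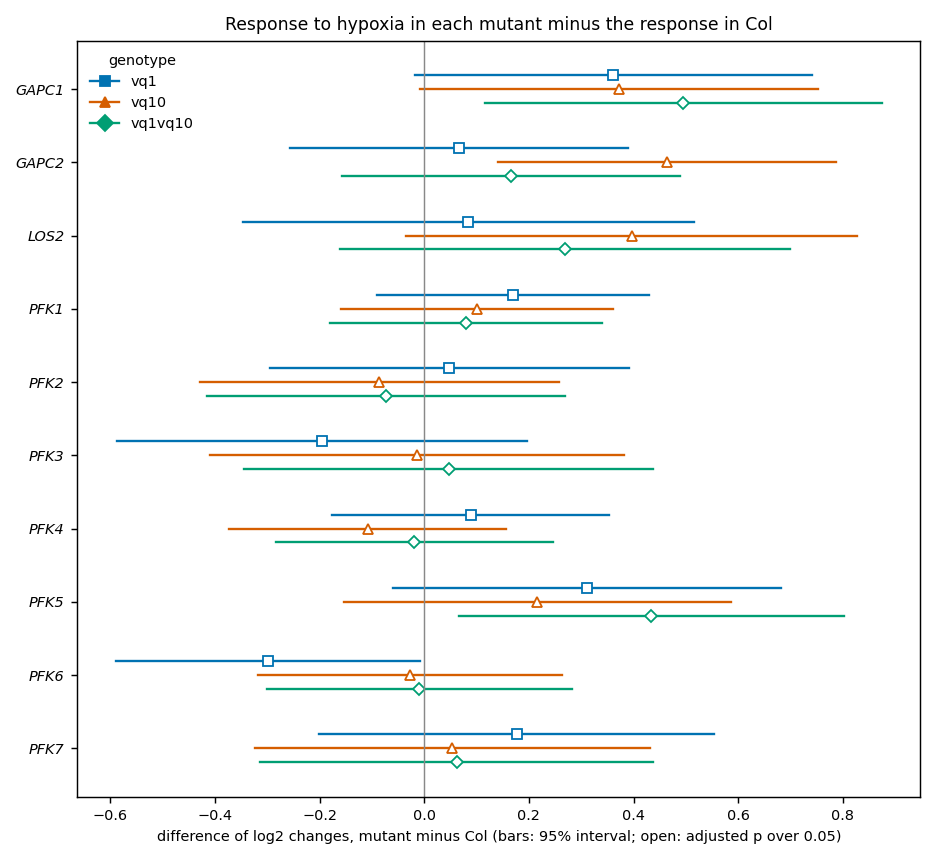
Response to hypoxia in each mutant minus the response in Col, as a difference of log2 changes with 95% intervals, for the 10 genes. All symbols are open (adjusted p over 0.05); the intervals of GAPC1 and PFK5 in vq1vq10 and of GAPC2 in vq10 lie above 0, and that of PFK6 in vq1 lies below 0.

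The double mutant was also set against each single mutant. Of 40 tests 0 were called by edgeR or DESeq2, with 2 at an unadjusted p under 0.05, where against vq1 0.119% of all genes were called under normoxia (24 genes, and 15 without normoxic vq1vq10 replicate 3) and 0.114% under hypoxia, and against vq10 0% in either (with unadjusted p under 0.05 for 467 and 1852 genes; DESeq2 called 0 and 17). The 2 were GAPC2 and PFK6 in hypoxic vq1vq10 against hypoxic vq1, at 0.25 and 0.22 on the log2 scale (adjusted p = 0.44 and 0.43). Against vq1, 2032 of all 20110 genes under hypoxia and 876 under normoxia had an unadjusted p under 0.05 by edgeR. Over the 40 tests the log2 difference ran from -0.21 to 0.26 and the intervals from -0.44 to 0.57.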

How the data were processed

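RNA-seq libraries of whole seedlings were deposited, per the file headers, as read counts, TPM and FPKM of each gene. HISAT2 2.0.4, DESeq2 and TAIR10 stand in the submitters' processing notes with no role, and how reads were counted (strand, shared reads) is not given in the sources used here. The deposited read counts are expected counts (525 to 581 genes a library are not whole) and were rounded. The deposited TPM served for levels between genes and the deposited FPKM was not used.

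The members and lists were chosen with earlier results of these data known. One edgeR 4.0.16 (R 4.3.3) quasi-likelihood fit with a mean per group was made on all 24 libraries after filterByExpr and TMM. The TMM factors were 0.876 to 1.018 in hypoxic and 1.030 to 1.108 in normoxic libraries, and the common dispersion was 0.0161. A run on simulated data covered only hypoxia against normoxia in Col, with far fewer changed genes than were called here. The other comparisons were not simulated. Calls are at a Benjamini-Hochberg adjusted p under 0.05 over 20110 genes, each standard error is |log2 change|/√F, and intervals are 95%. Replicates differed by more than sampling noise (chi-square/df of 5.97 or more), so none was a duplicate. Named genes were the members, the highest TPM gene of each step and compartment of the pathway list, its 3 largest called changes each way in Col, and the 3 patterns most like each member (log2 CPM, prior count 2). Sequences and positions are from TAIR10.1 (RefSeq), matched by locus; the deposited files hold no coordinates. The upstream window of PFK3 is not reported here. Alternatives were RLE factors, total counts, no low-count filter, DESeq2 1.42.0, the compared groups alone, a replicate block, and leaving out each library.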

Additional observations from a re-analysis of the deposited data

How the results depend on the processing

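PFK6, PFK3 and GAPC2 kept their calls in every genotype and for the mean change under every alternative run. RLE factors and no low-count filter changed no call of the 92 named values, nor did the replicate number as a block, under which the members called stayed at 5 in Col, 7 in vq1, 7 in vq10, 6 in vq1vq10 and 8 for the mean change. With each gene's group mean taken away, same-numbered libraries of different genotypes in a condition correlated at a median r of 0.12 (-0.10 to 0.38, 20 of 36 pairs over 0.1). Differently numbered ones had a median r of -0.06 (-0.36 to 0.20, 9 of 72 pairs over 0.1). These residuals cancel within each group, so a positive value for the first kind of pair brings a negative one for the other. The second median is therefore not separate evidence. The numbers are not said to mark a shared batch, so the main fit had no block. DESeq2 changed 1 call (PKP-ALPHA, called) and the compared groups alone changed 2 (PDTPI and PGK1, lost); that fit gives no value for the mean over genotypes. Total counts called PFK2 lower in all 4 genotypes and PFK7 lower for the mean change, and reversed GAPC1 in Col (-0.22), PFK1 in Col (-0.022), PFK7 in vq1 (-0.11), LOS2 in vq10 (-0.15) and, in Col, PGI1 (-0.21), PGM3 (-0.19) and CTIMC (-0.18). Leaving out single libraries gave log2 changes of -0.12 to 0.15 for GAPC1 in Col, -0.064 to 0.20 for LOS2 in vq10 and -0.16 to 0.086 for LOS2 in vq1vq10. PFK7 ranged over -0.029 to 0.15 in vq1, -0.13 to 0.051 in vq10, -0.18 to 0.045 in vq1vq10 and -0.067 to 0.0037 for the mean change. In Col, PGI1 ranged over -0.021 to 0.095, PGM3 -0.089 to 0.17, UGP1 -0.19 to 0.10 and CTIMC -0.048 to 0.15, and the GAPC2 response in vq1 minus Col ranged over -0.0033 to 0.12. The members called in vq1 ranged over 4 to 7, with 4 (GAPC2, PFK1, PFK3 and PFK6) without hypoxic vq1 replicate 1, and those called in mutants against Col under hypoxia over 0 to 1. Over all genes DESeq2 called 47 for vq1 against Col under normoxia (16 by edgeR), and under hypoxia 26 for vq1 (17), 25 for vq10 (13), 43 for vq1vq10 (17) and 76 for vq1vq10 against vq1 (23). The compared groups alone gave 3, 6 and 116 for hypoxic vq1 against Col, vq10 against Col and vq1vq10 against vq1, and 1 for the response in vq1vq10; total counts gave 45 for hypoxic vq1vq10 against vq1. Single libraries left out moved the count to 10 to 137 for hypoxic vq1 against Col, 10 to 338 for vq1vq10 against Col and as low as 13 for hypoxic and 15 for normoxic vq1vq10 against vq1. The causes were not tested. At these depths all members had reads in every library, and the spread between 3 replicates limits the smaller changes.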
